A study of Rattus norvegicus with 18 samples.

Results

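The unfolded protein response genes described here are Xbp1, Atf4, Ddit3, Herpud1, Sdf2l1, Pdia4, Pdia6, Calr, Manf and Creld2. They were chosen by name, as probe sets whose single gene symbol in the platform annotation is 1 of these 10, and each gene has exactly 1 such probe set. All 10 are on the array, out of 14217 genes with a single-symbol probe set, and all 10 passed the filter on low values in both tissues. The samples come from rats in which the heart of an adult male inbred Wistar Furth rat was placed in the abdomen of an ACI recipient. RNA was measured on 18 arrays, 9 from T cells and 9 from the grafted heart, with 1 array for each combination of tissue, treatment and day. The treatments were cyclosporine plus an allochimeric class I peptide, cyclosporine alone, and none, and the days were 1, 3 and 7 after transplantation. Cyclosporine, a calcineurin inhibitor, was fed at 10 mg/kg/day on days 0 to 2, a course the labels call below therapeutic. The peptide, [a1h1/u]-RT1.Aa, went into the portal vein at 1 mg/kg at the time of transplantation, on top of the same cyclosporine course. Every group, the untreated one included, was transplanted, so there is no sample without surgery and a foreign graft. All samples carry the strain label Wistar Furth, T cells included, so it is not settled here whether the T cells came from the donor or the ACI recipient strain, nor from which organ. The labels do not say whether a sample is 1 animal or a pool. No combination has a second array, so a p-value below is not set against a spread between replicates. It is set against what the fitted effects of tissue, treatment and day leave over in these arrays. That remainder may be technical, and it also holds any treatment difference that changes from day to day.

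Secreted and membrane proteins fold in the endoplasmic reticulum (ER). When unfolded proteins build up there, the sensors IRE1, PERK and ATF6 start the unfolded protein response. IRE1 splices the Xbp1 mRNA so that it encodes an active transcription factor, PERK slows translation while favouring that of Atf4, and ATF6 is cut to release a transcription factor. Cells with a heavy secretory load use the same programme without damage, and plasma cells, which depend on Xbp1, are the textbook case. In the heart it is known from ischaemia, inflammation and overload. Among the 10 genes, Xbp1, Atf4 and Ddit3 (CHOP, which acts below Atf4 and can promote cell death) are transcription factors. Herpud1 serves the removal of misfolded proteins from the ER, and Sdf2l1 is a luminal protein that works with the chaperone machinery. Pdia4 and Pdia6 are protein disulfide isomerases, Calr (calreticulin) is a calcium-binding lectin chaperone, and Manf and Creld2 are ER proteins that stress induces and that can be secreted. The array gives 1 value for Xbp1 and does not separate its spliced from its unspliced mRNA.

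Promoters of genes of this response are known to carry ER stress elements, so the windows around the gene starts were searched for them. RefSeq windows on GRCr8, from 250 bases before to 50 bases after the start, were at hand for 8 of the 10 genes, leaving Pdia6 and Manf. The ER stress element was searched as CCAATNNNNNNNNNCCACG and its second form as ATTGGNCCACG, both on either strand. One or the other stood in 4 of the 8 windows, against 39 of 33469 windows of all genes (0.117%). The genes were chosen as members of this response, so this contrast is a description and not a test. The 4 windows are printed because they show where these elements lie, 5′ to 3′ along the gene's strand, with the matches in capitals.
Xbp1, chr14:84604373-84604672, plus strand: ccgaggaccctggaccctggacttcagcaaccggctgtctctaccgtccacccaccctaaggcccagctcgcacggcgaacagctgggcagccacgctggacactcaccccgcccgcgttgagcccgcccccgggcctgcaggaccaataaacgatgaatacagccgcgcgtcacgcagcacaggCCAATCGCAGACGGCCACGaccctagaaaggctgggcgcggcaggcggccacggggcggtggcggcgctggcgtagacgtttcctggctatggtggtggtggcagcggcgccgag
Calr, chr19:40213117-40213416, plus strand: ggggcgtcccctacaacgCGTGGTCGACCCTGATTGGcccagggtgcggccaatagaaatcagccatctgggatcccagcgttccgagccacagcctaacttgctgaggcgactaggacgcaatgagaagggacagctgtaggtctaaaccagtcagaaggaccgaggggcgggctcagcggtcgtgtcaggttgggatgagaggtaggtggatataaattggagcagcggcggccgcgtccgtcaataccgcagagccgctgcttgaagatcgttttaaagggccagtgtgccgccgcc
Creld2, chr7:121789134-121789433, plus strand: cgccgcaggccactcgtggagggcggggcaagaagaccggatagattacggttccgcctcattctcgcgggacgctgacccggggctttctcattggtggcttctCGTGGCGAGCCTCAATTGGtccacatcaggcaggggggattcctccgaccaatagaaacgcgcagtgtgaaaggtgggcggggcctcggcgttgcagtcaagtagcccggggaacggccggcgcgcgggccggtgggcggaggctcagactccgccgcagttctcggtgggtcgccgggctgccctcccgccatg
Herpud1, chr19:10614658-10614957, minus strand: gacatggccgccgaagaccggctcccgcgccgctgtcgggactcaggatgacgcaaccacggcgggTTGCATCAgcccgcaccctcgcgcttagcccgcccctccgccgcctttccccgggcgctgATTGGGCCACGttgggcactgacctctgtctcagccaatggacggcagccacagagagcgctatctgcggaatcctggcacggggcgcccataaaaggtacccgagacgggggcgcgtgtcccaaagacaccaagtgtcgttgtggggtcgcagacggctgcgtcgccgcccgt

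Counted from the gene start, the first base of the match lies at -65 in Xbp1, on the gene's own strand. The matches in Calr, at -232, and in Creld2, at -145, lie on the opposite strand. Herpud1 carries the second form at -124, on its own strand. Its other capitals, at -184, are a match on the opposite strand to TGATGNAA, a core of the C/EBP-ATF element that ATF4 and CHOP partners bind. That core was found in 1 of the 8 windows and in 3.98% of all windows. The core TGACGTGG of the unfolded protein response element was in 0 of the 8 windows and in 0.595% of all. The ER stress element alone was in 3 of the 8 windows and in 0.0657% of all, and its second form in 1 of the 8 and in 0.0508% of all. The starts used for Herpud1 and Creld2 lie inside the spans that RefSeq gives these genes, so other starts were not searched. A match is a stretch of letters, not a measured binding site. The windows of Atf4, Ddit3, Sdf2l1 and Pdia4 held none of these letters.

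The values are deposited linear intensities, 1 per probe set and array, and all levels below are on that scale. Differences are on the scale of log2(intensity + 16), with the SE of the fit. A level of 1 gene is not set against that of another, since probe sets differ in brightness. Median intensity over all probe sets ran from 195 to 210 in the T cell arrays and from 210 to 231 in the heart arrays. The summed intensity of 10 T cell markers was 48795 to 69412 in T cells, against 1397 to 24353 in hearts. That of 9 heart muscle markers was 477 to 650 in T cells, against 87107 to 118066 in hearts. The T cell arrays also held B cell, plasma cell and macrophage markers, which are set beside the results they move with.

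**Figure D1:**
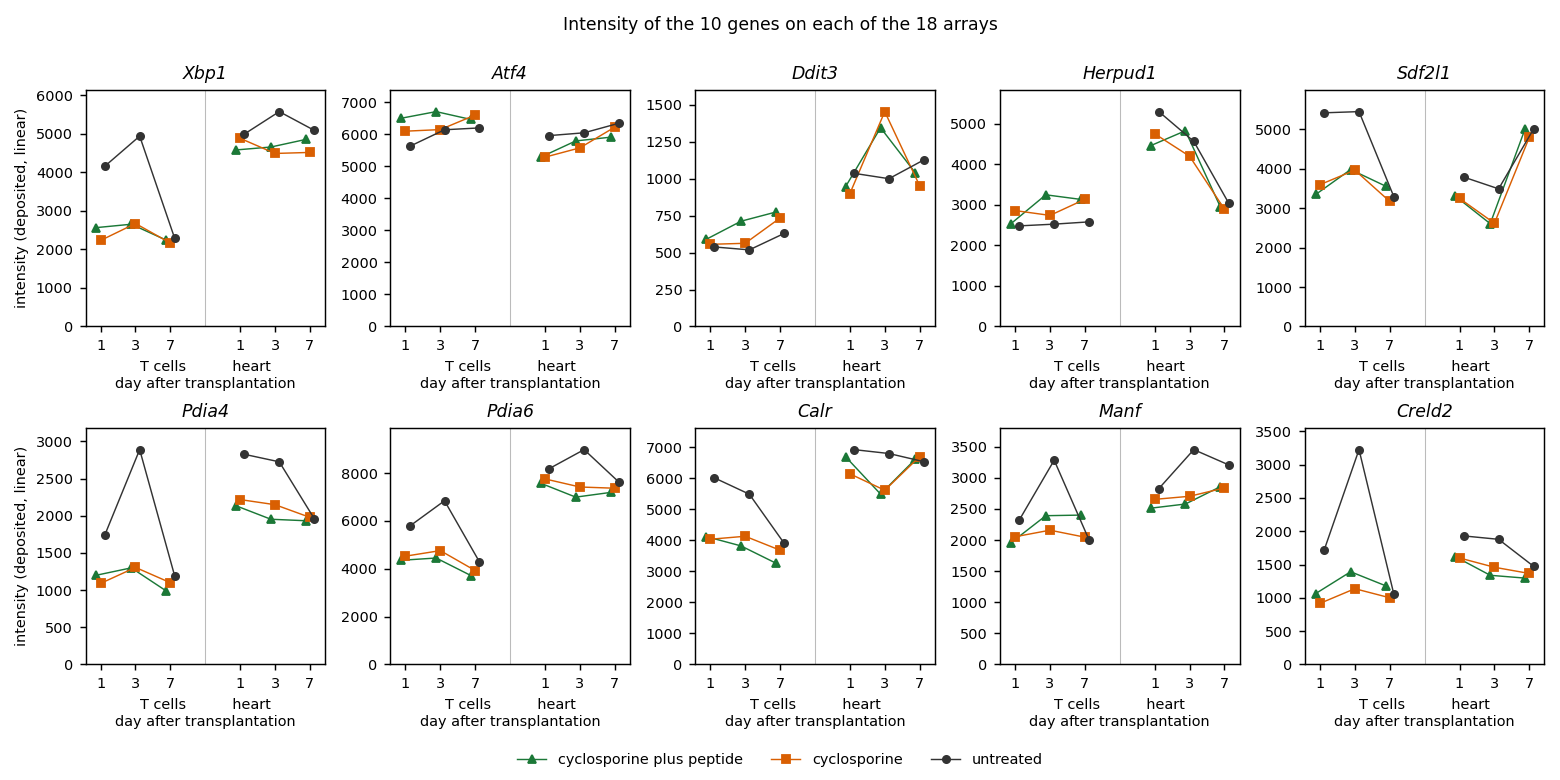
Deposited linear intensity (vertical axis, from 0) of each of the 10 genes on each of the 18 arrays, by day after transplantation (horizontal axis), T cells left and heart right in each panel; each point is 1 array and lines join the 3 days of a treatment. In T cells the untreated arrays of days 1 and 3 stand above the treated ones for Xbp1, Pdia4, Creld2 and Sdf2l1, and in heart Herpud1 is low and Sdf2l1 high on day 7.

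In the grafted hearts the genes did not move as 1 block over time. The largest changes went in opposite directions, with Herpud1 lower and Sdf2l1 higher on day 7 than on days 1 and 3. Pdia4 and Creld2 were lower and Atf4 slightly higher on day 7 than on day 1, while Xbp1, Ddit3, Pdia6, Calr and Manf did not pass the test in any pair of days.

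Herpud1 stood at 4454, 4823 and 2949 on days 1, 3 and 7 in hearts given cyclosporine plus peptide. With cyclosporine alone it stood at 4749, 4195 and 2888, and without treatment at 5295, 4561 and 3040. The 3 hearts of day 7 were all below the 6 hearts of the earlier days, and days 1 and 3 overlapped. Day 7 was lower than day 1 by a log2 difference of -0.70 ± 0.07 (limma, adjusted p = 5.38e-05), which is 0.615-fold, and lower than day 3 by -0.61 ± 0.07 (limma, adjusted p = 0.000172).

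Sdf2l1 went the other way. It stood at 3304, 2606 and 5012 on days 1, 3 and 7 with cyclosporine plus peptide, at 3246, 2617 and 4795 with cyclosporine, and at 3787, 3489 and 5002 without treatment. Day 7 was above every earlier heart, and the treatments lay close together on that day. The difference of day 7 from day 1 was 0.52 ± 0.08 (limma, adjusted p = 0.000560), or 1.43-fold, and that from day 3 was 0.78 ± 0.08 (limma, adjusted p = 0.000104). Between these, day 3 was below day 1 in each treatment, by -0.26 ± 0.08 (limma, adjusted p = 0.0434). That call was lost without the cyclosporine arrays, at -0.23, and without the cyclosporine plus peptide arrays, at -0.21.

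Creld2 stood at 1618, 1338 and 1296 on days 1, 3 and 7 with cyclosporine plus peptide, at 1598, 1459 and 1366 with cyclosporine, and at 1929, 1878 and 1474 without treatment. It was lower on each later day within each treatment, and day 7 did not overlap day 1. The difference of day 7 from day 1 was -0.31 ± 0.07 (limma, adjusted p = 0.00463). Pdia4 stood at 2134, 1953 and 1933 with cyclosporine plus peptide, at 2218, 2149 and 1978 with cyclosporine, and at 2826, 2726 and 1962 without treatment. Here too day 7 lay below day 1 without overlap, by -0.28 ± 0.09 (limma, adjusted p = 0.0246). The untreated hearts carried the largest part of it, at -0.52, and without them Pdia4 differed by -0.15 and the call was lost. Without the cyclosporine hearts it differed by -0.33, also uncalled, and with all 18 arrays in 1 fit neither Creld2 nor Pdia4 was called.

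Atf4 stood at 5283, 5788 and 5905 on days 1, 3 and 7 with cyclosporine plus peptide, at 5282, 5572 and 6219 with cyclosporine, and at 5954, 6042 and 6340 without treatment. It was higher on each later day within each treatment, although the untreated heart of day 1 overlapped day 7. The difference of day 7 from day 1 was 0.16 ± 0.05 (limma, adjusted p = 0.0170). The call was lost with quantile normalization, at 0.06, with centring on array medians, at 0.14, without the cyclosporine arrays, at 0.13, and without the cyclosporine plus peptide arrays, at 0.16.

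The 5 genes without a call moved little between days 1 and 7, by -0.08 (Pdia6) to 0.15 (Manf). Manf was nevertheless above day 1 on day 7 without overlap, with 2858, 2838 and 3209 on day 7, against 2512, 2655 and 2828 on day 1, each for cyclosporine plus peptide, cyclosporine and no treatment. Ddit3 had its highest hearts on day 3 with treatment, at 1345 with cyclosporine plus peptide and 1455 with cyclosporine, against 1000 without treatment. On days 1 and 7 the same order gave 947, 899 and 1037, and 1039, 953 and 1128. The day 3 difference was thus in the treated hearts alone in these arrays, and over all 3 treatments day 3 against day 1 came to 0.38 ± 0.14 (limma, adjusted p = 0.0798). Without the untreated arrays Ddit3 was called higher on day 3 than on day 1, by 0.59.

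These counts were near or below the share of all probe sets called. Between day 7 and day 1, 2 of the 10 genes were higher and 3 lower, while 30.9% of all probe sets tested were called higher and 33.8% lower. Between day 7 and day 3, 1 was higher and 1 lower, against 26.9% and 29.4% of all. Between day 3 and day 1, 0 were higher and 1 lower, against 14.6% and 12.9% of all. At an unadjusted p below 0.05 stood 2 of the 10, against 8088 of 19737 probe sets (41%). The median difference of the 10 genes between days 7 and 1 was 0.00, and that of all probe sets tested was -0.02.

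**Figure D2:**
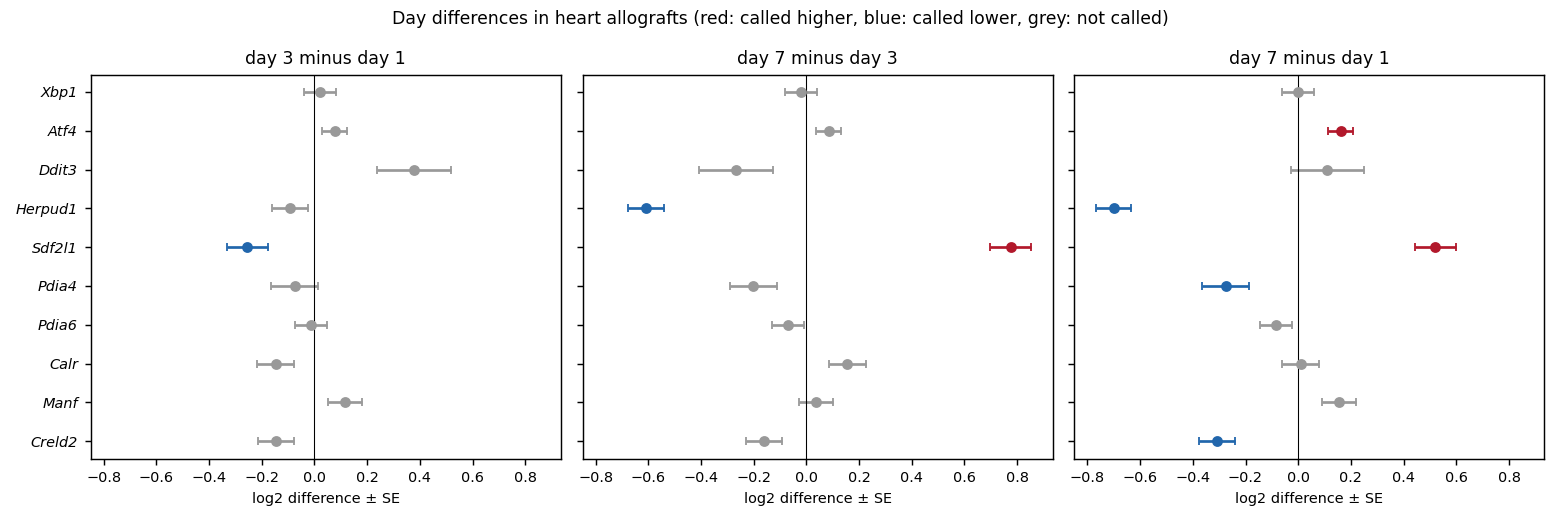
Log2 differences between days in heart allografts with SE bars (horizontal axis) for the 10 genes, each the mean of 3 same-treatment differences. Herpud1 is at -0.70 and Sdf2l1 at 0.52 for day 7 minus day 1, and the other 8 genes lie between them.

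Other genes of the response in the hearts split as well. Among 19 other ER chaperones and oxidoreductases, 3 were higher and 9 lower on day 7 than on day 1, with a median of -0.21. The largest were Fkbp11, a prolyl isomerase of secretory cells, at -0.59 ± 0.14, Hyou1, an ER chaperone that serves Hspa5, at -0.57 ± 0.08, and Dnajb9, a cochaperone of Hspa5, at -0.49 ± 0.07. Hspa5 itself (BiP, the main ER chaperone and brake on the sensors) was lower by -0.26 ± 0.05 and Hsp90b1 (GRP94) by -0.36 ± 0.06. Among 19 targets of PERK, ATF4 and CHOP, 11 were higher and 3 lower, with a median of 0.35. The largest were enzymes of serine and one-carbon metabolism, Psat1 at 2.11 ± 0.14, Mthfd2 at 1.52 ± 0.15 and Phgdh at 1.37 ± 0.21.

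Of 8 sensors and activating proteases tested, 5 were higher and 2 lower on day 7 than on day 1. Creb3l2, an ATF6-like factor, was lower by -0.77 ± 0.10, while Mbtps2, a protease that helps release ATF6, was higher by 0.70 ± 0.07 and Creb3, another ATF6-like factor, by 0.47 ± 0.06. Of the sensors themselves, Eif2ak3, which encodes PERK, was higher by 0.22 ± 0.07 and Atf6 by 0.37 ± 0.06. Of 13 genes of ER-associated degradation tested, the pathway Herpud1 belongs to, 5 were higher and 4 lower, with Os9, a lectin of that pathway, at 0.94 ± 0.13 and the mannosidase-like Edem2 and Edem1 at 0.58 ± 0.06 and 0.57 ± 0.07. Of 18 genes of protein entry into the ER and the early secretory pathway, 6 were higher and 1 lower. Between day 3 and day 1 the count was 9 higher and 0 lower, with Sec61b of the translocation channel at 0.61 ± 0.10 and Kdelr3, a receptor that returns ER proteins, at 0.61 ± 0.12.

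The cell make-up of the hearts changed over the same days, and in whole tissue fewer cells of a type and less RNA per cell cannot be told apart. On day 7, 9 of 9 tested T cell markers and 9 of 10 macrophage and monocyte markers were higher than on day 1. Summed T cell marker intensity was 1397 to 2350, 1929 to 3069 and 19861 to 24353 on days 1, 3 and 7. Macrophage markers summed to 16718 to 17614, 24992 to 32798 and 60904 to 65703. Endothelial markers, 7 of 7 lower on day 7, summed to 14586 to 16235, 13224 to 14133 and 6833 to 8294. Fibroblast and matrix markers were highest on day 3, with 8 of 10 higher than on day 1 and then 10 of 10 lower on day 7 than on day 3, and summed to 58294 to 64945, 97143 to 107632 and 64133 to 85866. Proliferation markers, 9 of 9 higher on day 3 and on day 7 than on day 1, summed to 2132 to 3577, 5999 to 8630 and 9197 to 11355. Of the 5 plasma cell markers tested, 3 were higher on day 3 than on day 1, namely Sdc1, Mzb1 and Prdm1. On day 7, 4 of the 5 were higher than on day 1, with Pou2af1, Prdm1 and Jchain the largest. Which cells in the hearts these transcripts came from was not tested. The plasma cell markers summed, over the 6 on the array, to 1267 to 1573, 2359 to 2891 and 2961 to 4685. Both tested B cell markers were higher on day 7 than on day 1. Heart muscle markers, 6 of 9 lower on day 7 than on day 1, summed to 111383 to 115727, 102487 to 118066 and 87107 to 99773. Actin control probe sets at the 3′ end, divided by those at the 5′ end as a sign of RNA quality, gave 1.84 to 2.44, 1.64 to 1.87 and 1.41 to 1.43 on the same days. The part of any of these in the day differences of the 10 genes and of the other lists was not tested.

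Treatment was compared with no treatment in the hearts to ask whether the drug or the drug with peptide altered the response in the graft. With cyclosporine plus peptide, 9 of the 10 genes were below untreated hearts on average and with cyclosporine alone the same number, but 0 passed the test in either comparison. The differences were small and both comparisons share the 3 untreated arrays. Ddit3 was the exception in both, and was above untreated on day 3 alone.

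Creld2 had the lowest adjusted p in both. Its levels, given above, were below the untreated heart of the same day on all 3 days in both treatments. The difference was -0.31 ± 0.07 with cyclosporine plus peptide (limma, adjusted p = 0.195) and -0.25 ± 0.07 with cyclosporine (limma, adjusted p = 0.287). Manf, also lower on all 3 days in both, stood at 2580 and 2704 on day 3 with cyclosporine plus peptide and with cyclosporine, against 3454 without treatment. Its differences were -0.25 ± 0.06 and -0.21 ± 0.06 in the same order. Pdia4 differed by -0.30 ± 0.09 with cyclosporine plus peptide and by -0.23 ± 0.09 with cyclosporine.

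Over the list, the median difference was -0.17 with cyclosporine plus peptide and -0.15 with cyclosporine, and the medians of all probe sets were -0.02 and 0.00. With limma 0% of all probe sets passed in each of these comparisons. At an unadjusted p below 0.05 stood 7 of the 10 genes with cyclosporine plus peptide, and 3156 of 19737 probe sets. With cyclosporine it was 5 of the 10, and 2288 probe sets. Of the 19 other ER chaperones and oxidoreductases, 0 were positive in either comparison, with medians of -0.16 and -0.12, and 0 passed. The other lists also lay below untreated. Of 19 targets of PERK, ATF4 and CHOP, 2 and 1 were positive, with medians of -0.23 and -0.20. Of 18 genes of ER entry and the early secretory pathway, 2 and 1 were positive, with medians of -0.09 and -0.07. Medians were -0.09 and -0.09 for ER-associated degradation and -0.05 and -0.06 for the sensors and proteases, with 0 called in any list. Cyclosporine plus peptide and cyclosporine alone differed by -0.07 to 0.05 over the 10 genes, again with 0 called (0% of all probe sets, 954 at an unadjusted p below 0.05) and with 0 of the 10 at an unadjusted p below 0.05. A p that misses the threshold does not show that the treatments act alike.

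Other measures differed with treatment in the same hearts, among them a sign of RNA quality and the markers of some cell types. The median difference of the 10 genes on days 1, 3 and 7 was -0.17, -0.33 and -0.08 with cyclosporine plus peptide, and -0.17, -0.29 and -0.07 with cyclosporine. The actin 3′ to 5′ ratio on those days was 2.44, 1.82 and 1.43 with cyclosporine plus peptide, 2.27, 1.87 and 1.41 with cyclosporine, and 1.84, 1.64 and 1.41 without treatment. It was thus higher in both treated hearts than in the untreated one on days 1 and 3 and nearly level on day 7. The same ratio for GAPDH did not show this order on day 1 or day 3. On day 1 it was 1.574 with cyclosporine plus peptide and 1.495 with cyclosporine, against 1.504 without treatment. On day 3 it was 1.63, 1.51 and 1.65 in the same order. Of the heart muscle markers 9 of 9 were positive in both comparisons, with 0 called, and they summed to 115727, 118066 and 97094 with cyclosporine plus peptide, 112565, 116757 and 99773 with cyclosporine, and 111383, 102487 and 87107 without treatment. Of the macrophage markers 2 of 10 were positive with cyclosporine plus peptide and 0 of 10 with cyclosporine, with 0 called. They summed to 16718, 27449 and 62988, to 16800, 24992 and 60904, and to 17614, 32798 and 65703 in the same order. Plasma cell markers were positive in 1 of 5 and 0 of 5, and proliferation markers in 0 of 9 and 6 of 9, again with 0 called. The part of RNA quality and of cell make-up in the treatment differences of the 10 genes was not tested.

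In T cells the untreated arrays of days 1 and 3 stood apart. Xbp1, Sdf2l1, Pdia4, Pdia6, Calr, Manf and Creld2 were higher there than in both treated samples of the same day, and by day 7 the treatments lay close together. Atf4, Ddit3 and Herpud1 did not share this, and were a little higher with treatment on average. None of these differences passed the test over the whole array. The test takes the mean over the days, so a difference limited to days 1 and 3 also enlarges its SE.

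Xbp1 stood at 2566, 2653 and 2241 on days 1, 3 and 7 with cyclosporine plus peptide and at 2233, 2672 and 2165 with cyclosporine. Without treatment it stood at 4158, 4941 and 2296. The 2 early untreated arrays were above the other 7, which overlapped. The difference from untreated was -0.54 ± 0.17 with cyclosporine plus peptide (limma, adjusted p = 0.131) and -0.62 ± 0.17 with cyclosporine (limma, adjusted p = 0.351).

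Creld2 stood at 1064, 1391 and 1182 with cyclosporine plus peptide, at 917, 1137 and 1001 with cyclosporine, and at 1715, 3225 and 1051 without treatment on days 1, 3 and 7. The untreated sample of day 3 was the highest of the 9 by far. On day 3 alone, with 1 array on each side and so no test, the log2 difference from untreated was -1.20 with cyclosporine plus peptide and -1.49 with cyclosporine. On day 7 the same differences were 0.17 and -0.07.

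Pdia4 followed the same order, with 1200, 1299 and 989 with cyclosporine plus peptide, 1090, 1305 and 1099 with cyclosporine, and 1740, 2890 and 1196 without treatment. Its differences from untreated were -0.65 ± 0.18 with cyclosporine plus peptide (limma, adjusted p = 0.119) and -0.64 ± 0.18 with cyclosporine (limma, adjusted p = 0.362). Both treated groups were below untreated on all 3 days.

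Pdia6 and Calr had smaller but steadier differences. Pdia6 stood at 4356, 4451 and 3716 with cyclosporine plus peptide, at 4529, 4761 and 3926 with cyclosporine, and at 5782, 6845 and 4293 without treatment. Calr stood at 4126, 3825 and 3268 with cyclosporine plus peptide, at 4039, 4136 and 3686 with cyclosporine, and at 6019, 5493 and 3905 without treatment. Each treated sample was below the untreated one of its day. With cyclosporine plus peptide the differences were -0.41 ± 0.09 for Pdia6 and -0.44 ± 0.09 for Calr (limma, adjusted p = 0.116 for both), the lowest adjusted p of the 10 genes there. With cyclosporine they were -0.33 ± 0.09 and -0.35 ± 0.09 (limma, adjusted p = 0.343 for both).

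Sdf2l1 stood at 3347, 3978 and 3558 with cyclosporine plus peptide, at 3594, 3963 and 3170 with cyclosporine, and at 5416, 5447 and 3286 without treatment. Manf stood at 1956, 2392 and 2402, at 2053, 2159 and 2046, and at 2322, 3284 and 2002 in the same order. In both genes the untreated sample stood above both treated ones on days 1 and 3, and on day 7 the cyclosporine plus peptide sample was above the untreated one.

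Atf4 was nearly level, at 6496, 6702 and 6457 with cyclosporine plus peptide, 6092, 6142 and 6597 with cyclosporine, and 5618, 6136 and 6194 without treatment. Ddit3 stood at 589, 712 and 775 with cyclosporine plus peptide, at 556, 563 and 734 with cyclosporine, and at 538, 519 and 630 without treatment. Herpud1 stood at 2532, 3244 and 3132, at 2856, 2737 and 3134, and at 2479, 2522 and 2578 in the same order. These 3 genes were above the untreated sample of the same day in both treatments on all 3 days. The differences with cyclosporine plus peptide were 0.13 ± 0.06 for Atf4, 0.29 ± 0.09 for Ddit3 and 0.22 ± 0.09 for Herpud1, and those with cyclosporine were 0.07 ± 0.06, 0.13 ± 0.09 and 0.20 ± 0.09.

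**Figure D3:**
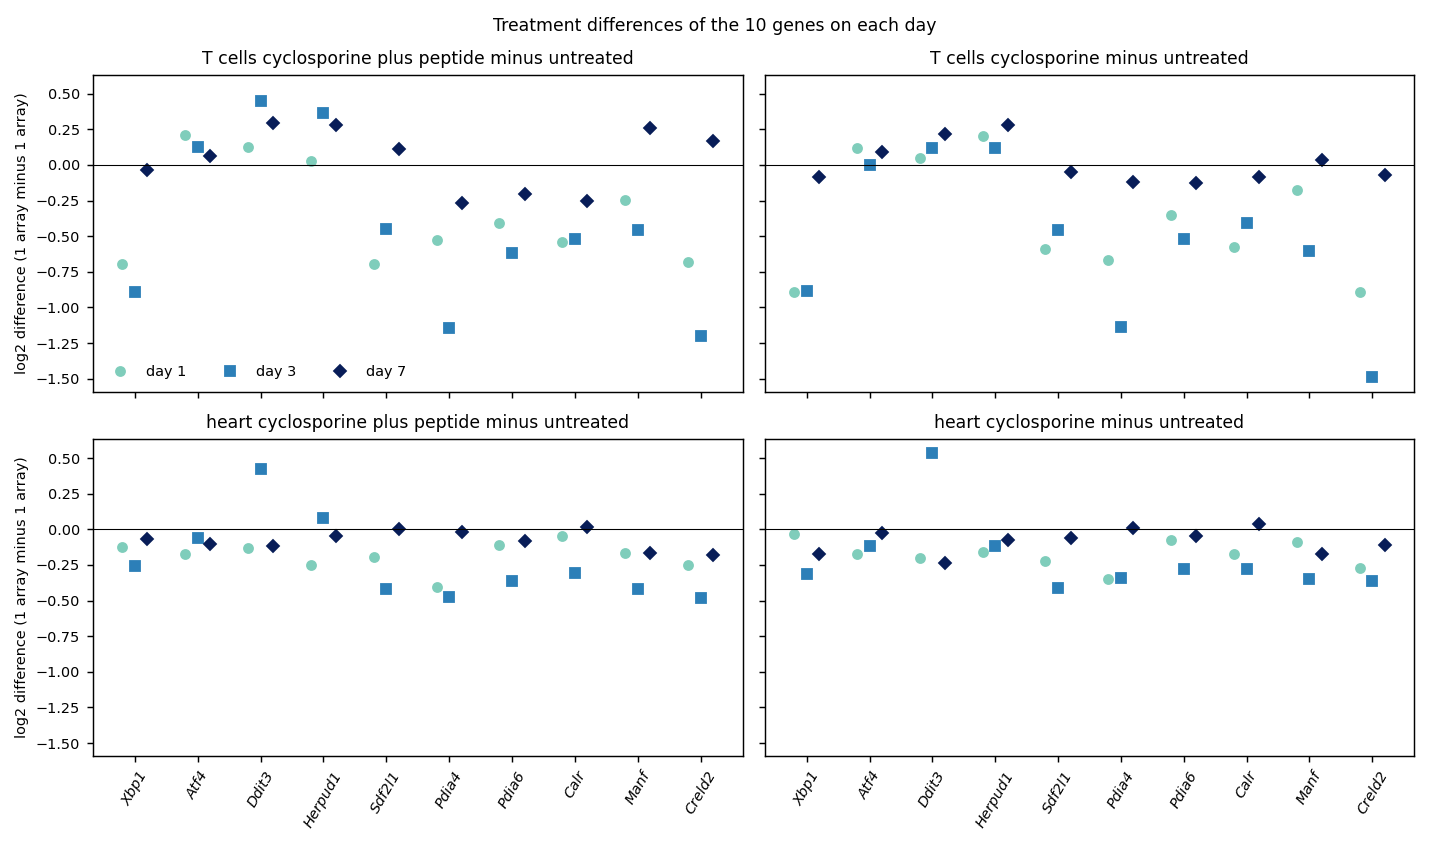
Log2 differences (vertical axis) of a treated array minus the untreated array of the same tissue and day, for the 10 genes, with T cells above and heart below; each point is 1 array minus 1 array and has no error of its own. In T cells 7 genes lie below 0 on days 1 and 3 and nearer 0 or above it on day 7, with Creld2 at -1.49 on day 3 with cyclosporine.

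The untreated arrays enter both comparisons, so the 2 sets of values are not independent of each other. The median over the 10 genes on days 1, 3 and 7 was -0.47, -0.49 and 0.09 with cyclosporine plus peptide, and -0.46, -0.49 and -0.06 with cyclosporine. In limma 0 of the 10 genes passed in either comparison, as did 0% of all probe sets. At an unadjusted p below 0.05 stood 8 of the 10 genes and 4636 of 19464 probe sets with cyclosporine plus peptide, and 6 of the 10 and 2216 probe sets with cyclosporine. The cyclosporine plus peptide result depends on the fit. With all 18 arrays in 1 fit, Xbp1, Pdia4, Pdia6 and Calr were called lower, and without the day 1 arrays Calr was called lower and Ddit3 and Herpud1 higher. The share of all probe sets called in these fits is not given here, so the calls are not set against it. Between cyclosporine plus peptide and cyclosporine alone the 10 genes differed by -0.08 to 0.25, with 0 called (0% of all probe sets, 857 at an unadjusted p below 0.05) and 0 of the 10 at an unadjusted p below 0.05.

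The other ER chaperones and oxidoreductases had the same order. Their summed intensity on days 1, 3 and 7 was 40306, 39466 and 36699 with cyclosporine plus peptide, 39392, 41966 and 37976 with cyclosporine, and 49774, 57974 and 40648 without treatment. Of the 19, 1 was positive with cyclosporine plus peptide and 2 with cyclosporine, with medians of -0.33 and -0.28, and 0 passed. Hspa5 differed from untreated by -0.57 ± 0.10 with cyclosporine plus peptide and by -0.39 ± 0.10 with cyclosporine, and Hsp90b1 by -0.73 ± 0.17 and -0.59 ± 0.17. The 16 tested targets of PERK, ATF4 and CHOP had medians of 0.02 and -0.06, and the 7 tested sensors and proteases 0.03 and -0.04.

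Markers of other cell types moved with these genes in the T cell arrays. Plasma cell markers, 6 of which were on the array and tested, summed to 8725, 11040 and 7764 with cyclosporine plus peptide, 6874, 10453 and 7108 with cyclosporine, and 16217, 21582 and 7503 without treatment. Of them 0 of 6 were positive in either comparison with untreated, and 0 passed. Jchain, the joining chain of secreted antibodies, stood at 3125, 4957 and 3750, at 2696, 4980 and 3048, and at 6802, 9729 and 3333 in the same order. Mzb1, an ER cofactor of antibody secretion, stood at 1882, 2357 and 1317, at 1209, 1901 and 1104, and at 2890, 5807 and 1101. The early untreated arrays that were high for Xbp1, Pdia4 and Creld2 were thus high for these as well. No plasma cell marker was at 0 in them.

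B cell markers did not follow the same days. They summed to 15859, 12621 and 7618 with cyclosporine plus peptide, 12093, 11580 and 9450 with cyclosporine, and 24388, 7392 and 8151 without treatment. The untreated sample of day 3, highest for the ER genes, was thus the lowest of the 9 for B cell markers. Macrophage markers (0 of 10 positive in either comparison), endothelial markers (0 of 7) and, with cyclosporine, proliferation markers (0 of 9) were also lower with treatment on average, and 9 of 10 T cell markers were higher, all without a call. Summed T cell marker intensity was 66176, 68677 and 69412 with cyclosporine plus peptide, 64654, 64227 and 68787 with cyclosporine, and 48795, 60944 and 66762 without treatment. Fibroblast and matrix markers reached 4896 in the untreated sample of day 1 and 1146 to 1703 in the other 8. The part of these cells in the differences of the 10 genes was not tested.

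**Figure D4:**
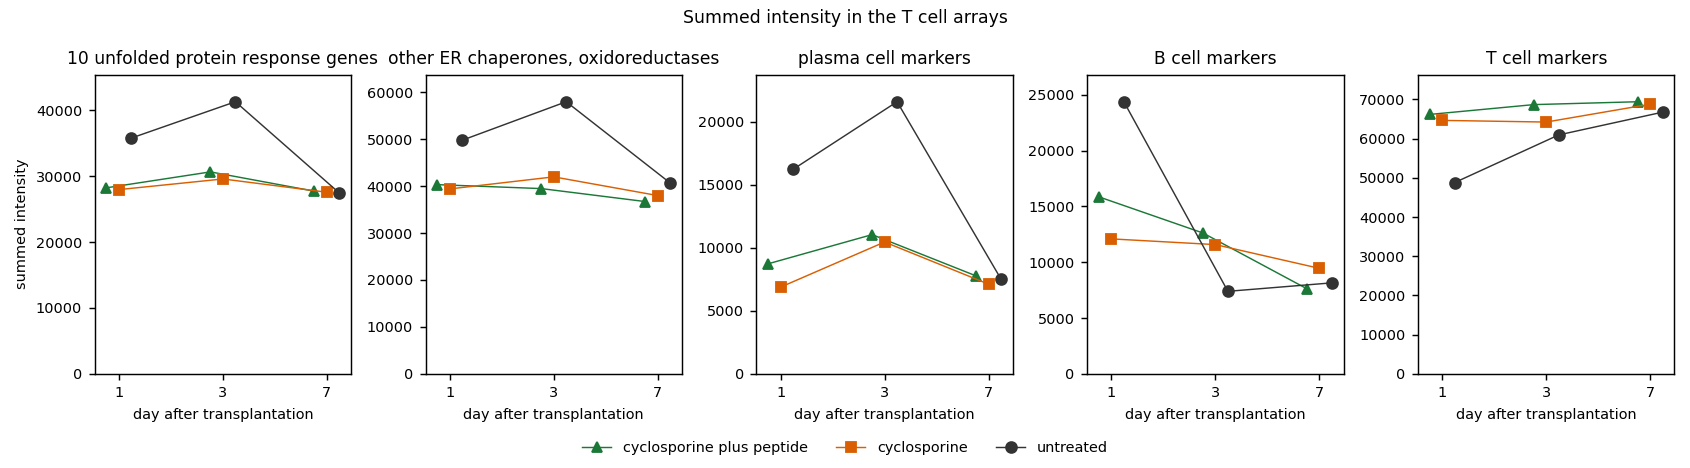
Summed intensity (vertical axis, from 0) over each gene list in the 9 T cell arrays, by day (horizontal axis) and treatment; each point is 1 array. The 10 genes, the other ER chaperones and the plasma cell markers are highest in the untreated array of day 3, whereas B cell markers are highest in that of day 1.

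The days were also compared within T cells. Summed over the 10 genes, intensity on days 1, 3 and 7 was 28233, 30650 and 27719 with cyclosporine plus peptide, 27959, 29575 and 27559 with cyclosporine, and 35787, 41300 and 27430 without treatment. For day 7 minus day 3 the median difference of the 10 genes was -0.19 with cyclosporine plus peptide, -0.17 with cyclosporine and -0.69 without treatment, each from single arrays. Xbp1, Sdf2l1, Pdia4 and Pdia6 were lower on day 7 than on every array of day 3, and the other 6 overlapped. The share of all probe sets without overlap between these days was not counted. Over the 3 treatments the largest differences between these days were Creld2 at -0.67 ± 0.24, Pdia4 at -0.63 ± 0.18 and Xbp1 at -0.55 ± 0.17. Without the untreated arrays these shrank to -0.21, -0.32 and -0.27.

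With limma, 0 of the 10 genes were called between any 2 days in T cells. For day 3 against day 1, 0% of all probe sets were called and 0 of the 10 had an unadjusted p below 0.05, against 1615 of 19464 probe sets. For day 7 against day 3 it was again 0% of all, with 7 of the 10 and 1050 probe sets at an unadjusted p below 0.05. For day 7 against day 1, 0.575% of all were called. At an unadjusted p below 0.05 stood 3 of the 10, near the share of all probe sets (4654 of 19464, 23.9%). Those 3 were Calr at -0.36 ± 0.09 (limma, adjusted p = 0.0904), Pdia6 at -0.29 ± 0.09 (limma, adjusted p = 0.112) and Ddit3 at 0.33 ± 0.09 (limma, adjusted p = 0.103). In all 3 genes the arrays of day 7 and day 1 did not overlap, which was not counted over all probe sets. With all 18 arrays in 1 fit, Pdia6 and Calr were called lower on day 7 than on day 1. The share of all probe sets called in that fit is not given here.

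T cells were then set against hearts over all 18 arrays. Of the 10 genes, 7 were lower in T cells and 1, Atf4, was slightly higher. The lower ones were 2 of the transcription factors, Xbp1 and Ddit3, with Herpud1, both disulfide isomerases, Calr and Manf. Sdf2l1 and Creld2 did not pass the test.

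Ddit3 had a lowest, median and highest intensity of 519, 589 and 775 in T cells, against 899, 1037 and 1455 in hearts. Pdia6 had 3716, 4451 and 6845 in T cells, against 6998, 7577 and 8984 in hearts. In these 2 genes every T cell array was below every heart array, and in the other 8 the tissues overlapped. How many of all probe sets separate in this way was not counted, so these numbers are not set against a share. The differences were -0.78 ± 0.09 for Ddit3 (limma, adjusted p = 7.88e-07) and -0.71 ± 0.06 for Pdia6 (limma, adjusted p = 1.94e-08).

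Xbp1 had 2165, 2566 and 4941 in T cells, against 4490, 4854 and 5576 in hearts. The overlap came from the untreated T cells of day 3, and in each of the 9 pairs of the same treatment and day the T cells were lower. The difference was -0.81 ± 0.11 (limma, adjusted p = 2.94e-06), or 0.572-fold. Calr had 3268, 4039 and 6019 in T cells, against 5496, 6626 and 6931 in hearts, and was also lower in all 9 pairs, by -0.60 ± 0.08 (limma, adjusted p = 2.55e-06). Pdia4 had 989, 1200 and 2890 in T cells, against 1933, 2134 and 2826 in hearts. It was lower in 8 of 9 pairs, the untreated pair of day 3 being the other, by -0.69 ± 0.11 (limma, adjusted p = 1.99e-05).

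Manf had 1956, 2159 and 3284 in T cells, against 2512, 2828 and 3454 in hearts, with a difference of -0.32 ± 0.07 (limma, adjusted p = 0.000579). Herpud1 had 2479, 2737 and 3244 in T cells, against 2888, 4454 and 5295 in hearts, with a difference of -0.52 ± 0.11 (limma, adjusted p = 0.000441). Its 2 positive pairs were those of the treated groups on day 7, when Herpud1 was low in hearts.

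Atf4 had 5618, 6194 and 6702 in T cells, against 5282, 5905 and 6340 in hearts. It was higher in 7 of 9 pairs, by 0.11 ± 0.04 (limma, adjusted p = 0.0238). Over all probe sets tested the median favoured T cells by 0.15 as deposited, by 0.22 with quantile normalization and by 0.25 with centring on medians, so Atf4 lay below the shift as deposited. The call was lost without the cyclosporine arrays, at 0.09, without the cyclosporine plus peptide arrays, at 0.06, without the arrays of day 1 or of day 3, without a trend, and with each combination of treatment and day as a block. Sdf2l1 had 3170, 3594 and 5447 in T cells, against 2606, 3489 and 5012 in hearts (0.09 ± 0.14; limma, adjusted p = 0.553). It was called higher in T cells, by 0.42, when the day 7 arrays were left out. Creld2 had 917, 1137 and 3225 in T cells, against 1296, 1474 and 1929 in hearts (-0.24 ± 0.14; limma, adjusted p = 0.132). It was called lower in T cells without the untreated arrays, at -0.38, and without the day 3 arrays, at -0.44.

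Over the array 47.9% of probe sets were called higher and 35.5% lower in T cells. The median of the 10 genes was -0.56. Of the 19 other ER chaperones and oxidoreductases 1 was higher and 16 lower, with a median of -0.70, the largest being Pdia5, another disulfide isomerase, at -1.33 ± 0.16, Dnajb9 at -1.07 ± 0.07 and Ero1a, an oxidase that recharges these isomerases, at -1.02 ± 0.10. Ero1b, its paralogue, was the higher one at 0.76 ± 0.08. Hspa5 was at -0.86 ± 0.06. The 8 sensors and proteases split evenly, with 4 higher, such as Atf6b, a relative of Atf6, at 1.31 ± 0.09, and 4 lower, such as Creb3l1 at -2.47 ± 0.20. The targets of PERK, ATF4 and CHOP split too, 9 higher and 9 lower of 19, with Atf3, a stress-induced transcription factor, at -4.01 ± 0.16.

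**Figure D5:**
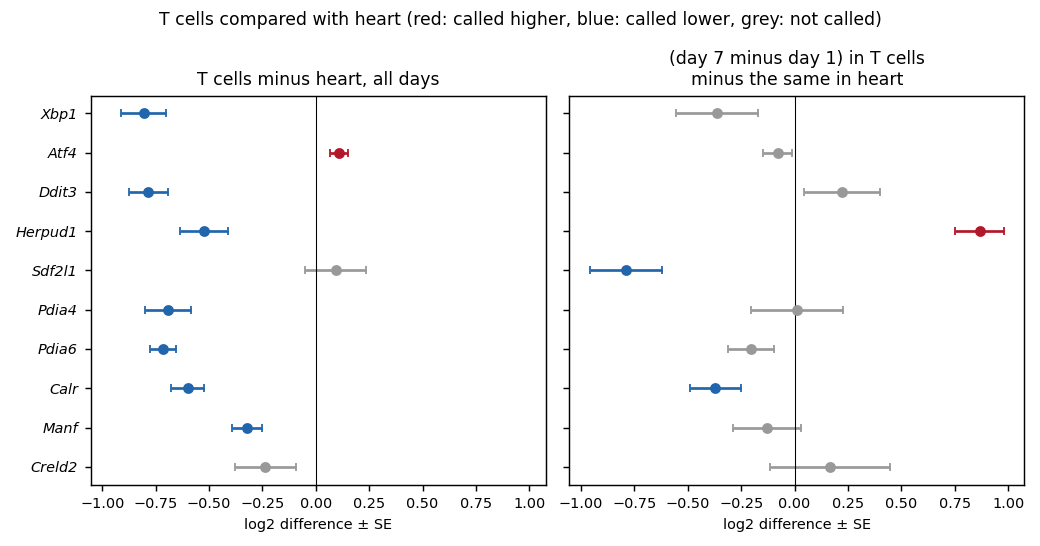
Left, log2 differences of T cells minus heart over all arrays, and right, the day 7 minus day 1 difference in T cells minus that in heart, both with SE bars (horizontal axis), for the 10 genes. On the left Xbp1 is lowest at -0.81, and on the right Herpud1 at 0.87 and Sdf2l1 at -0.79 lie farthest from 0.

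Whether time acted differently in the 2 tissues was tested as an interaction. Herpud1, Sdf2l1 and Calr differed. On day 7 minus day 1 Herpud1 stood at 0.16 ± 0.09 in T cells and at -0.70 ± 0.07 in hearts, a difference between the tissues of 0.87 ± 0.11 (limma, adjusted p = 7.58e-05). Sdf2l1 stood at -0.27 ± 0.13 in T cells and at 0.52 ± 0.08 in hearts, a difference of -0.79 ± 0.17 (limma, adjusted p = 0.00220). Calr stood at -0.36 ± 0.09 in T cells and at 0.01 ± 0.07 in hearts, a difference of -0.37 ± 0.12 (limma, adjusted p = 0.0233). The Calr call was lost without the cyclosporine arrays and without the cyclosporine plus peptide arrays. Without the untreated arrays Creld2 was called as well, at 0.41. So 1 of the 10 genes was called higher and 2 lower, against 23.2% and 23.5% of all probe sets.

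The treatment differences were tested the same way. Atf4 was nearest to a call, with a difference between the tissues of 0.24 ± 0.07 for cyclosporine plus peptide minus untreated (limma, adjusted p = 0.0968). Of the 10 genes, 0 were called for either treatment, against 0.00448% of all probe sets in each. At an unadjusted p below 0.05 stood 3 of the 10 in each, against 4625 of 22327 probe sets (20.7%) with cyclosporine plus peptide and 2282 (10.2%) with cyclosporine. The treatment differences are thus not shown to differ between the tissues.

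The genes closest to the mean course of the 10 were found within each tissue, as those with the smallest root mean square difference in centred log2 values over its 9 arrays. In hearts they were Mogs, which trims the first glucose from new glycans in the ER, at 0.044, Tmem87b, Rpn1, Lgals8 and Mcam, out of 11142 genes. The mean of the 10 itself had an SD of 0.08 there, so a nearly flat gene comes close to it. In T cells they were Gmppb, an enzyme that makes the mannose donor for glycans, at 0.084, Rpn1, Slc35b1, Lrrc59 and Sec24d, out of 10436 genes, where the mean had an SD of 0.20. Rpn1, a subunit of the complex that adds glycans to proteins in the ER, was among them in both tissues. The 10 genes themselves lay 0.045 (Pdia6) to 0.34 (Sdf2l1) from their mean in hearts and 0.096 (Manf) to 0.35 (Ddit3) in T cells. Sdf2l1, Herpud1 and Ddit3 were the farthest in hearts, and Ddit3, Creld2 and Herpud1 in T cells.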

How the data were processed

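Each array's values were deposited as linear intensities, 1 for each probe set, and how the authors normalized and background-corrected them is not given in the sources used here. Total RNA was amplified and biotin-labelled with Enzo kits, per the labels' protocols. Of all intensities 771 (0.138%) lay below 0. From these values, intensities below 0 were set to 0 and log2(intensity + 16) was taken, with no further scaling, which understates changes of weak genes. Of 31099 probe sets, 57 controls were left out. Tested probe sets exceeded their array's 40th percentile on 3 or more arrays of a fit. A gene was represented by the single-symbol probe set with the highest mean.

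Tests were made with limma 3.58.1 in R 4.3.3 (lmFit and eBayes with a mean trend), with Benjamini-Hochberg adjustment over all probe sets tested and a call at an adjusted p below 0.05. Treatment and day were fitted to the 9 arrays of each tissue with 4 residual degrees of freedom. A treatment or day difference is the mean of 3 array differences. T cells minus heart used 18 arrays with 12 residual degrees of freedom, and the interactions 8. No combination has a second array, and the number of arrays limits the precision. The test was tried on simulated data first. Alternatives were other pseudocounts, quantile normalization, median centring, no filter, no trend, all arrays in 1 fit, a block, and leaving out the arrays of a day or treatment; leaving out a treatment in T cells minus heart was added after seeing the data.

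The members and lists were chosen with earlier results of these data known. Of each list, up to 3 called genes with the largest differences are named. Hspa5, Hsp90b1, Eif2ak3, Atf6, Ero1b, Jchain and Mzb1 were named in addition, with their values seen. Promoter windows are from RefSeq (GRCr8). Proteins were not used here.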

Additional observations from a re-analysis of the deposited data

Results flagged for a closer look

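In 3 of the 10 genes the change from day 1 to day 7 differed between T cells and hearts by the test of the difference itself. Of all probe sets tested 46.7% were called in the same test, so the count is below that share. For Herpud1 the T cell change minus the heart change was 0.87 ± 0.11 (limma, adjusted p = 7.58e-05), positive in all 3 treatments. For Sdf2l1 it was -0.79 ± 0.17 (limma, adjusted p = 0.00220) and for Calr -0.37 ± 0.12 (limma, adjusted p = 0.0233). T cell, macrophage and proliferation markers rose in the hearts over the same days, and their part in these differences was not tested.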

How the results depend on the processing

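Counts of the 10 genes called changed by more than 1.5 times as follows. In hearts, day 3 minus day 1 gave 1 as reported. It gave 3 with median centring and 3 without the untreated arrays. It gave 0 without a filter, 0 without a trend, 0 with all 18 arrays in 1 fit, 0 without the cyclosporine arrays and 0 without the cyclosporine plus peptide arrays. Day 7 minus day 3 gave 2, and 4 without the untreated arrays. Day 7 minus day 1 gave 5, against 3 with all 18 arrays in 1 fit and 3 without the cyclosporine arrays. In T cells with all 18 arrays in 1 fit, day 7 minus day 1 gave 2 and cyclosporine plus peptide minus untreated gave 4, where 0 were reported. That treatment comparison gave 3 without the day 1 arrays. The cause of these changes was not tested. These counts are given without the share of all probe sets called under the same alternative, so they are not set against it. The other 147 counts under an alternative stayed within 1.5 times, and 0 called differences changed sign. Among single genes, 21 differences lost and 20 gained a call. Another 103 without a call moved by at least their SE, 90 of them on leaving out a day or treatment, and 20 changed sign. With each combination of treatment and day as a block, T cells minus heart gave 7, against 8. No paired analysis by replicate was possible because each combination has 1 array and the labels number no replicates. Averaging probe sets was not run because each of the 10 genes has 1. The number of arrays sets the precision, and all 10 genes lay well above the filter.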
